A study of Mus musculus with 13 samples.

Results

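The mitochondrially encoded subunits of cytochrome c oxidase (mt-Co1, mt-Co2 and mt-Co3), of the cytochrome bc1 complex (mt-Cytb) and of ATP synthase (mt-Atp6 and mt-Atp8) were examined in mice lacking Hmox2, the gene for the constitutive heme oxygenase HO-2. These 6 genes were chosen by name, with no threshold on their values, from 36109 genes whose transcript values could be summed, and all 6 passed the filter on low counts in both tissues. RNA was sequenced from aortic endothelial cells (ECs), collected by flushing the aortic lumen with lysis reagent, and from fast-frozen whole heart. The groups were Hmox2+/+ (WT) and Hmox2-/- (KO) mice kept in room air. There were 3 WT and 3 KO EC libraries and 4 WT and 3 KO heart libraries. The labels give neither age nor sex, and the study describes the sequenced mice as young. The deletion is present in every cell of the KO mice, and an endothelial flush or a whole heart can hold other cells, so fewer cells of a type and less RNA per cell cannot be told apart in these bulk samples.

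Mitochondrial DNA encodes 13 proteins of the respiratory chain and ATP synthase, and nuclear genes encode the remaining subunits of the same complexes. Complex III passes electrons to cytochrome c, with cytochrome b as a heme-bearing core subunit. Complex IV passes them on to oxygen through the hemes and copper centres of subunits 1 and 2, with subunit 3 completing its core. Complex V makes ATP, and subunits a and 8, the products of mt-Atp6 and mt-Atp8, are part of its membrane portion. All 6 genes are read from the same strand as parts of long precursor RNAs that are cut into mRNAs and given poly(A) tails, and cardiac muscle is rich in these transcripts.

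In the GRCm39 annotation the 6 genes are single-exon, protein-coding genes without introns on the plus strand of the mitochondrial chromosome. In order they are mt-Co1 (chrM:5328-6872), mt-Co2 (chrM:7013-7696), mt-Atp8 (chrM:7766-7969), mt-Atp6 (chrM:7927-8607), mt-Co3 (chrM:8607-9390) and mt-Cytb (chrM:14145-15288). The mt-Atp8 and mt-Atp6 genes overlap by 43 bases and are carried on a shared mRNA, and mt-Atp6 meets mt-Co3 at a single base. The stretch of the overlap is shown because reads in it cannot be given to either gene alone, with the start codon of mt-Atp6 and then the stop codon of mt-Atp8 in capitals.
mt-Atp8/mt-Atp6 (chrM:7915-7981, plus strand): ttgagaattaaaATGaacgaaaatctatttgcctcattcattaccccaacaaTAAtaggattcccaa

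The last 30 bases of each gene are shown because the libraries were primed on poly(A) tails, and the tail supplies the rest of an unfinished stop codon. The capitals mark the last codon, which was complete in 4 genes and a single T in mt-Co3 and mt-Cytb.
mt-Co1 (chrM:6843-6872): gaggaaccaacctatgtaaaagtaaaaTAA
mt-Co2 (chrM:7667-7696): ttcgaaaactgatctgcttcaataattTAA
mt-Co3 (chrM:9361-9390): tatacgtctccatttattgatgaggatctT
mt-Cytb (chrM:15259-15288): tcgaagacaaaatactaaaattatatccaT
mt-Atp6 (chrM:8578-8607): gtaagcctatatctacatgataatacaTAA
mt-Atp8 (chrM:7940-7969): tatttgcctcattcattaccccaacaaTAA

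A second set of sequences bears on how the reads were shared out. The mouse nuclear genome holds unprocessed pseudogenes that copy part of the mitochondrial chromosome, and the deposited tables list them as separate genes. On the minus strand of chromosome 1, Gm28661 (chr1:24653966-24654646) matched 681 bases of mt-Co2, Atp6-ps (chr1:24653055-24653732) matched 678 bases of mt-Atp6 and Gm28437 (chr1:24652270-24653052) matched 783 bases of mt-Co3, each with 0 mismatches. Gm29216 (chr1:24654787-24655278) matched positions 1054 to 1545 of mt-Co1 with 6 mismatches, which all lie at its start: T1056A, C1057T, A1059G, A1060G, C1062A and A1066T, counted from 1 at the first base of mt-Co1 with the mt-Co1 base first. The capitals below mark these bases, and outside this stretch a read from Gm29216 is identical to mt-Co1.
mt-Co1 (chrM:6381-6413, plus strand): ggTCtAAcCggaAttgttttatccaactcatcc
Gm29216 (chr1:24655246-24655278, minus strand): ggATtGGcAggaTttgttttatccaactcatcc

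Counted as 31-base words, 100% of mt-Co2, 99.9% of mt-Co3, 99.5% of mt-Atp6 and 63.9% of mt-Co1 also occurred in listed nuclear genes. For mt-Cytb the share was 6.55% and for mt-Atp8 7.47%. The values of mt-Co2, mt-Co3, mt-Atp6 and mt-Co1 are therefore uncertain as to their split with the copies, and each is also given below with the counts of its copies added.

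The libraries held between 7268626 (heart WT 1) and 31619776 estimated counts. Counts of Hmox2, scaled by library size and TMM factor to counts in 1000000 (CPM), were 37.3 to 42.5 in WT and 7.53 to 8.90 in KO hearts, and 63.9 to 76.2 in WT and 12.6 to 14.7 in KO ECs, so the target was lower in every KO library, although 73.4% of its 31-base words also occur in other listed genes. By TPM the gap was smaller, at 25.9 to 34.4 in WT and 15.9 to 18.5 in KO hearts and 51.3 to 61.6 in WT and 19.0 to 32.05 in KO ECs. The log2 fold change was -2.30 in heart and -2.34 in ECs by counts, and -1.09 and -1.16 by length-scaled TPM. Cardiomyocyte markers were all detected in heart, where their summed level was 56054 to 65846 CPM of all counts in WT and 71285 to 77048 in KO. Endothelial markers were detected in every EC library (8 of 8), at 2585 to 4623 in WT and 5463 to 6225 in KO.

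In KO hearts 5 of the 6 genes took a smaller share of all sequenced fragments, while mt-Co3 kept nearly its WT share. The 6 genes together took 27.2%, 26.1%, 29.5% and 28.7% of all estimated counts in the WT hearts and 16.8%, 19.8% and 19.7% in the KO hearts. The groups did not overlap, and the means were 27.9% ± 1.52 (SD, n = 4) and 18.8% ± 1.72 (SD, n = 3; exact permutation test, two-sided, p = 0.0286, which 4 libraries against 3 cannot go below). By TMM-scaled CPM, a measure unlike these shares, libraries of the groups did not overlap for 40.4% of the 13816 genes tested in heart.

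The oxidase subunits fell unequally. mt-Co1, the catalytic subunit, took 12.3%, 11.7%, 13.05% and 12.5% of all counts in WT hearts and 5.30%, 7.57% and 8.22% in KO hearts. All KO libraries lay below all WT libraries, with the lowest value in heart KO 1. mt-Co2, which receives electrons from cytochrome c, took 3.15%, 3.05%, 3.54% and 3.84% in WT and 2.17%, 2.35% and 1.85% in KO hearts, again without overlap. mt-Co3 took 4.43%, 4.43%, 4.85% and 4.78% in WT and 4.42%, 4.59% and 4.54% in KO hearts, and these ranges overlapped.

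Among the other 3 genes the groups did not overlap. mt-Cytb took 4.25%, 4.18%, 4.60% and 4.19% of all counts in WT hearts against 2.40%, 2.83% and 2.58% in KO hearts. mt-Atp6 took 2.71%, 2.58%, 3.07% and 3.10% against 2.35%, 2.36% and 2.38%. mt-Atp8 took 0.303%, 0.191%, 0.386% and 0.300% against 0.150%, 0.110% and 0.148%. Exact permutation tests of these single-gene shares gave p = 0.0286 for mt-Co1, mt-Co2 and mt-Cytb, 0.0571 for mt-Atp6 and mt-Atp8 and 0.429 for mt-Co3. Adjusted over the 24 tests of single-gene shares in both tissues, none was below 0.137.

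**Figure D1:**
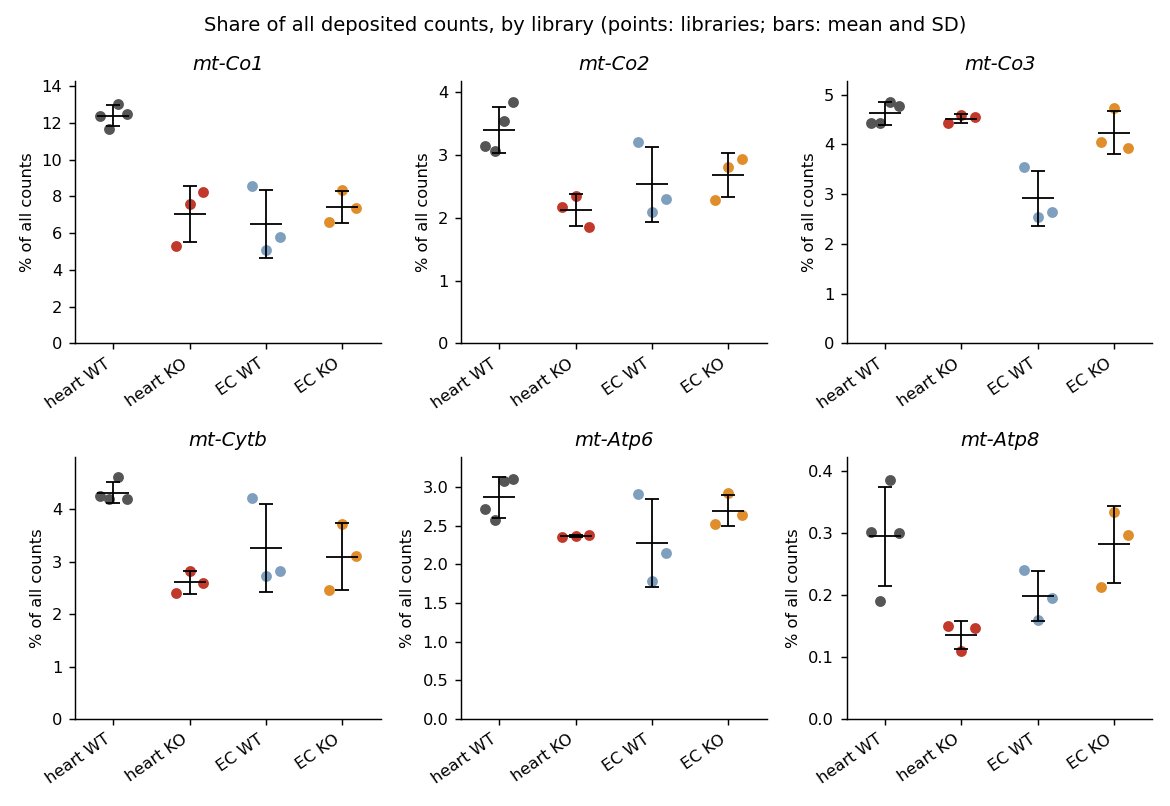
Percent of all estimated counts taken by each of the 6 genes (y axis, from 0) in heart WT, heart KO, EC WT and EC KO libraries (x axis); points are libraries and bars the mean and SD. The KO hearts lie below the WT hearts in 5 panels, and in the mt-Co3 panel the heart groups overlap while EC KO lies above EC WT.

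The edgeR quasi-likelihood test, with TMM scaling and Benjamini-Hochberg adjustment over all genes tested, called all 6 genes lower in KO hearts at an adjusted p of at most 0.05. In the same comparison 33.4% of genes passed, 16.2% of genes being lower, and the median log2 fold change over all genes was -0.01 against -0.97 over the 6 genes. On the log2 scale mt-Cytb fell by 0.99 (SE 0.11, adjusted p = 0.00011), mt-Co1 by 1.08 (SE 0.15, adjusted p = 0.00057) and mt-Co2 by 0.94 (SE 0.13, adjusted p = 0.00079). mt-Atp8 fell by 1.40 (SE 0.22, adjusted p = 0.0014), mt-Atp6 by 0.55 (SE 0.11, adjusted p = 0.0046) and mt-Co3 by 0.30 (SE 0.096, adjusted p = 0.033).

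The calls of mt-Atp6 and mt-Co3 depended on the fit. mt-Atp6 did not pass with all libraries in a joint fit (adjusted p = 0.15), and neither did mt-Co3 (adjusted p = 0.44). With library totals alone in place of TMM, which moved the median of all genes to 0.26, mt-Co3 changed by -0.03 (adjusted p = 0.80) and the other 5 genes still passed. It also failed without heart WT 1, 3 or 4 or heart KO 2, in turn, at adjusted p values up to 0.10. Under the study's criterion for differentially expressed genes (DEGs), an adjusted p of at most 0.05 with at least a 2-fold change, mt-Co1 and mt-Atp8 were DEGs, as were 4.05% of genes on the lower side. The 7 mitochondrially encoded subunits of complex I, the mt-Nd genes, also passed as lower, with log2 fold changes from -1.85 to -0.61 and a median of -1.59. The lowest value, for mt-Nd3, depended on its split with a nuclear copy: Gm28438 held at most 0.119% of the counts of the pair in WT hearts and 66.8% to 78.4% in KO hearts. With copies added mt-Nd3 gave 0.02 in heart (adjusted p = 0.95), and the other 6 mt-Nd genes still passed, at -1.67 to -0.61. The split of mt-Nd3 followed the genotype in ECs too: Gm28438 held at most 0.380% in WT and 56.5% to 67.3% in KO ECs. There mt-Nd3 moved from -0.72 (adjusted p = 0.074) to 0.76 (adjusted p = 0.092) with copies added.

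Within the mitochondrial transcripts the order of the genes changed. Of the counts of the 13 mitochondrially encoded genes, the 6 genes took 66.8% to 70.0% in WT and 73.2% to 75.2% in KO hearts, with means of 67.9% ± 1.43 (SD, n = 4) and 74.5% ± 1.13 (SD, n = 3; exact permutation test, p = 0.0286). mt-Co3 took 11.01%, 11.9%, 11.04% and 11.1% of mitochondrial counts in WT hearts and 19.8%, 17.4% and 16.9% in KO hearts. mt-Atp6, its neighbour on the chromosome, took 6.74%, 6.90%, 6.99% and 7.23% in WT and 10.5%, 8.95% and 8.83% in KO hearts. Both groups of values lay apart, and each gave p = 0.0286 in the exact permutation test and 0.137 after adjustment over the 24 tests.

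The remaining 4 genes kept overlapping shares of mitochondrial counts in heart. mt-Co1 took 29.0% to 31.3% in WT and 23.7% to 30.5% in KO, mt-Co2 7.81% to 8.94% and 6.87% to 9.73%, and mt-Cytb 9.77% to 11.2% and 9.59% to 10.7%. For mt-Atp8 the ranges were 0.512% to 0.878% and 0.418% to 0.674%. With mt-Co1 left out of both parts of the share, the 6-gene share rose by more, 10.7 percentage points against 6.63, and with copies added it rose by 6.34.

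Ratios of counts within a library do not depend on the scaling between libraries. There were 0.359 to 0.384 counts of mt-Co3 per count of mt-Co1 in WT hearts and 0.552 to 0.835 in KO hearts. With copies added to both genes the ranges were 0.340 to 0.364 and 0.516 to 0.680. Counts of mt-Cytb per count of mt-Co3 were 0.876 to 0.959 in WT and 0.542 to 0.615 in KO hearts. Counts of mt-Atp8 per count of mt-Atp6, which share an mRNA, were 0.0742 to 0.126 in WT and 0.0468 to 0.0640 in KO hearts, so even this pair did not keep its ratio.

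**Figure D2:**
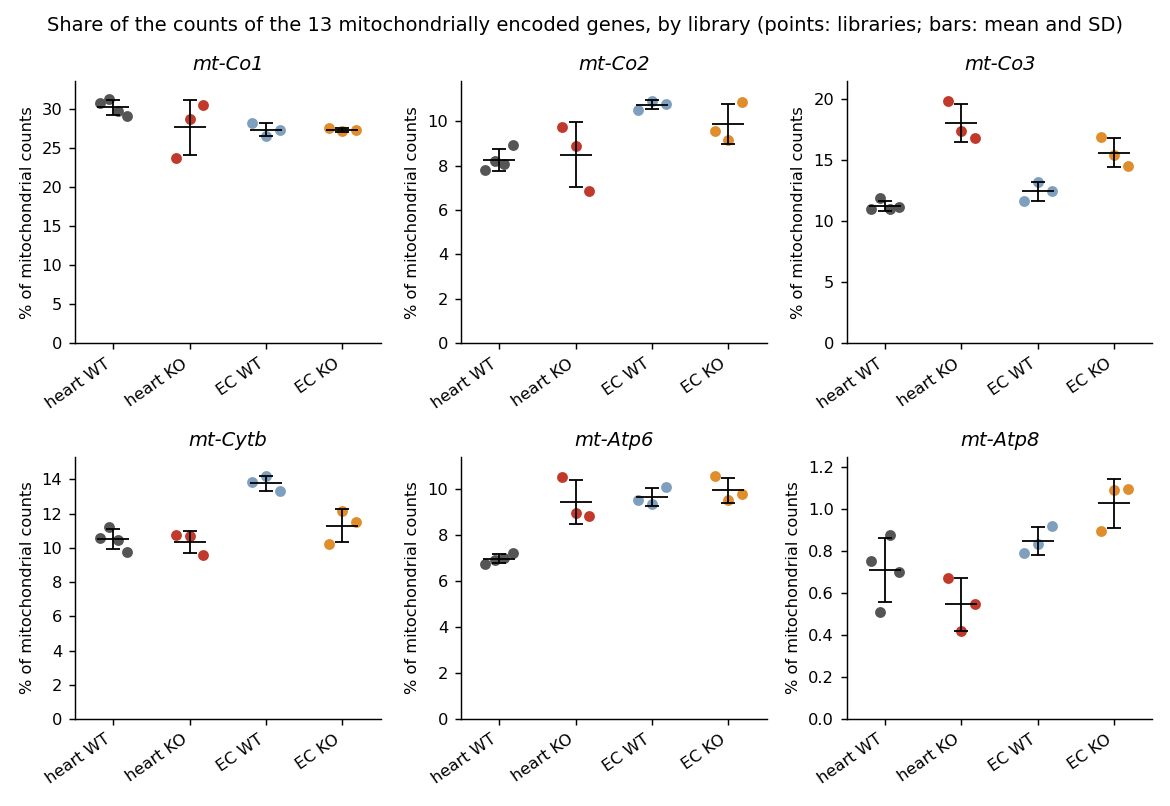
Percent of the counts of the 13 mitochondrially encoded genes taken by each of the 6 genes (y axis, from 0) in the 4 groups (x axis); points are libraries and bars the mean and SD. mt-Co3 lies higher in KO than in WT in both tissues, mt-Atp6 lies higher in KO in heart, and mt-Cytb lies lower in KO in ECs.

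In ECs no member passed, while the shares of mitochondrial counts lay apart between the groups for mt-Co3, higher in KO, and mt-Cytb, lower in KO. The 6 genes together took 22.7%, 14.4% and 15.9% of all counts in WT ECs and 18.1%, 22.8% and 20.3% in KO ECs, with means of 17.7% ± 4.42 and 20.4% ± 2.36 (SD, n = 3 each; exact permutation test, p = 0.40). With 3 against 3 libraries this test cannot give a p below 0.10. EC WT 1 was the high WT library for each of the 6 genes, and the WT and KO ranges overlapped for every gene but mt-Co3.

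mt-Co3 took 3.56%, 2.54% and 2.65% of all counts in WT ECs and 4.05%, 4.74% and 3.92% in KO ECs, so every KO value was above every WT value (p = 0.10, adjusted p = 0.24, exact permutation test). As a share of mitochondrial counts it took 11.7%, 13.2% and 12.5% in WT and 16.9%, 15.4% and 14.5% in KO ECs, also without overlap. By TMM-scaled CPM, an unlike measure, the groups did not overlap for 40.7% of the genes tested in ECs. By that measure mt-Co3 did overlap, at 24880 to 40883 in WT and 37618 to 50543 in KO ECs. mt-Cytb took 13.9%, 14.2% and 13.3% of mitochondrial counts in WT and 10.3%, 12.1% and 11.5% in KO ECs, without overlap in the other direction (exact permutation test, p = 0.10, adjusted p = 0.24, for each of these shares). Counts of mt-Cytb per count of mt-Co3 were 1.07 to 1.19 in WT and 0.606 to 0.792 in KO ECs.

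The other 4 genes overlapped in their mitochondrial shares in ECs. mt-Co1 took 26.6% to 28.2% in WT and 27.1% to 27.6% in KO, and mt-Co2 10.5% to 10.9% and 9.16% to 10.9%. mt-Atp6 took 9.32% to 10.1% and 9.50% to 10.6%, and mt-Atp8 0.790% to 0.921% and 0.894% to 1.10%. The 6 genes together took 74.5% to 75.1% of mitochondrial counts in WT and 74.4% to 75.7% in KO ECs, a difference of 0.232 percentage points (exact permutation test, p = 0.70).

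In the edgeR test none of the 6 genes passed in ECs, where 18.1% of genes did, and 0 of the 6 had an unadjusted p under 0.05. DESeq2 also called 0. The log2 fold changes ran from -0.14 for mt-Cytb to 0.47 for mt-Co3, with SEs of 0.31 to 0.54, against 0.096 to 0.22 in heart. The adjusted p was 0.89 for mt-Co1, 0.99 for mt-Co2, 0.47 for mt-Co3, 0.85 for mt-Cytb, 0.79 for mt-Atp6 and 0.34 for mt-Atp8.

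Cardiomyocyte markers also differed between the EC groups: their summed level was 138 (EC WT 1), 620 (EC WT 2) and 231 (EC WT 3) CPM of all counts in WT and 10.7 to 18.3 in KO ECs. All 12 markers were detected in the WT libraries, and Myl3 was under 1 count in EC KO 3. EC WT 1, with the highest share of the 6 genes among WT ECs, had the lowest level of these markers. Smooth muscle markers were 3278 to 5528 in WT and 1100 to 3760 in KO ECs. White adipocyte markers were lower in KO ECs without overlap, at 5284 to 8298 in WT and 3854 to 5235 in KO. Fibroblast markers were higher without overlap, at 2083 to 4240 and 5120 to 6380, as were the endothelial markers given above. Of single markers, 3 of 6 fibroblast and 3 of 8 endothelial markers passed as higher and 1 of each list as lower. Of 12 cardiomyocyte markers 11 passed as lower (median log2 fold change -4.59), and of 6 smooth muscle markers 3 did (median -1.31), with 0 higher. Of 6 macrophage markers 3 passed as higher and 0 as lower. Of 6 brown adipocyte markers 1 passed, as lower, and of 6 erythroid markers 0 passed. Of 5 white adipocyte markers 1 passed, as lower, where 18.1% of all genes passed in either direction. Brown adipocyte markers overlapped, at 3056 to 4246 and 2555 to 3890, as did erythroid markers. Macrophage markers overlapped narrowly, at 107.9 to 150.5 in WT and 149.8 to 229.3 in KO. The part of these cells in the mitochondrial values was not tested.

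The difference between tissues was tested as an interaction in a fit over all 13 libraries, in which 28.8% of genes passed. Only mt-Atp8 passed of the 6, with a heart effect lower than the EC effect by 1.80 on the log2 scale (SE 0.40, adjusted p = 0.0053). The differences for the other 5 genes ran from -1.16 for mt-Co1 to -0.68 for mt-Atp6, at adjusted p values of 0.083 to 0.20. Without EC WT 1 all 6 genes passed, and DESeq2 called 5 of 6.

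In WT mice the level of the 6 genes was higher in heart than in ECs, by an amount that depended on scaling. mt-Co1 took 11.7% to 13.05% of all counts in WT hearts and 5.10% to 8.58% in WT ECs, and mt-Co3 4.43% to 4.85% and 2.54% to 3.56%. These ranges did not overlap. The ranges of the other 4 genes did overlap between the tissues, through EC WT 1 and, for mt-Atp8, also EC WT 3. In the edgeR contrast all 6 passed as higher in heart, with log2 differences of 1.15 to 1.74, where 65.8% of genes passed and 32.1% were higher in heart. With library totals alone the differences were 0.33 to 0.93, 3 of the 6 passed, and the median of all genes moved to -0.89.

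TPM, a level per length in which each library sums to 1000000, ordered the genes as follows. In WT hearts mt-Atp8 (99553 ± 22929, SD, n = 4) and mt-Co1 (90113 ± 275) overlapped, and mt-Co1 lay above mt-Co3 (76012 ± 2195). mt-Co3 overlapped mt-Co2 (66753 ± 5555), below which came mt-Atp6 (56687 ± 3241) and mt-Cytb (44387 ± 1386), each apart from the gene above it. In KO hearts mt-Co3 had the highest TPM of the 6 (77222 ± 6075, SD, n = 3) and did not overlap the others. mt-Co1, mt-Atp6, mt-Atp8 and mt-Co2 overlapped each other at means of 53648, 48651, 48024 and 43314, and mt-Cytb was lowest at 27917.

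In WT ECs mt-Atp8 was highest at 73136 ± 10082 (SD, n = 3), and it overlapped mt-Co2 at 53737 and mt-Co1 at 50884 through EC WT 1. mt-Co3 (51803) and mt-Atp6 (48665) lay in the same range, and mt-Cytb overlapped the lower end at 36169. In KO ECs mt-Atp8 (99230 ± 19059, SD, n = 3) and mt-Co3 (72173 ± 4755) were the upper genes and did not overlap, mt-Co1, mt-Atp6 and mt-Co2 overlapped at 56029, 55363 and 54690, and mt-Cytb was lowest at 32983. The TPM of mt-Atp8 rests on an effective length of 29.2 of its 204 bases, so its level against the other genes is uncertain. Its comparison between groups does not use this length, which was the same in every library.

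The nuclear copies took up part of the counts of the oxidase genes, and the part differed between libraries and, for some copies, between genotypes. Of the counts of mt-Co1 and its copies, 5.16% to 6.25% were assigned to the copies in WT hearts. In KO hearts the part was 19.5%, 12.9% and 6.73%, with the highest value in heart KO 1. In ECs it was 8.72% to 9.46% in WT and 4.22% to 8.32% in KO, without overlap. For mt-Co2 the assigned part was 0.178% to 11.8% in WT hearts, 0.770% to 27.4% in KO hearts, 0.0313% to 0.483% in WT ECs and 4.41% to 22.5% in KO ECs. For mt-Co3 it was at most 4.25% and for mt-Atp6 at most 0.732%. For mt-Cytb and mt-Atp8, which have no copy over the limit of 20% of shared words, it was not measured. By edgeR, on the log2 scale, Gm28437 rose by 4.90 in heart (adjusted p = 0.0081) and Gm28661 by 6.07 in ECs (adjusted p = 0.018). Gm13341 fell by 1.45 in heart (adjusted p = 0.0089). These copies did not pass in the other tissue, and no other copy of the 6 genes passed. Of all genes 33.4% passed in heart and 18.1% in ECs.

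For the 6 genes, adding the copies turned no difference in the share of all counts in heart. mt-Co1 with its copies took 13.1% ± 0.626 of all counts in WT and 8.03% ± 1.26 in KO hearts (SD, n = 4 and 3), and mt-Co2 3.62% ± 0.170 and 2.48% ± 0.259. mt-Co3 with its copy took 4.63% ± 0.222 and 4.61% ± 0.170. mt-Atp6 with its copy took 2.87% ± 0.262 and 2.36% ± 0.0160 of all counts, and 6.80% ± 0.237 and 8.81% ± 0.812 of mitochondrial counts. In ECs the copies turned the difference of mt-Co2 in mitochondrial share from -0.883 to 0.549 percentage points, and with copies added the KO values lay above the WT values. The edgeR counts of 6 called in heart and 0 in ECs were the same with copies added.

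**Figure D3:**
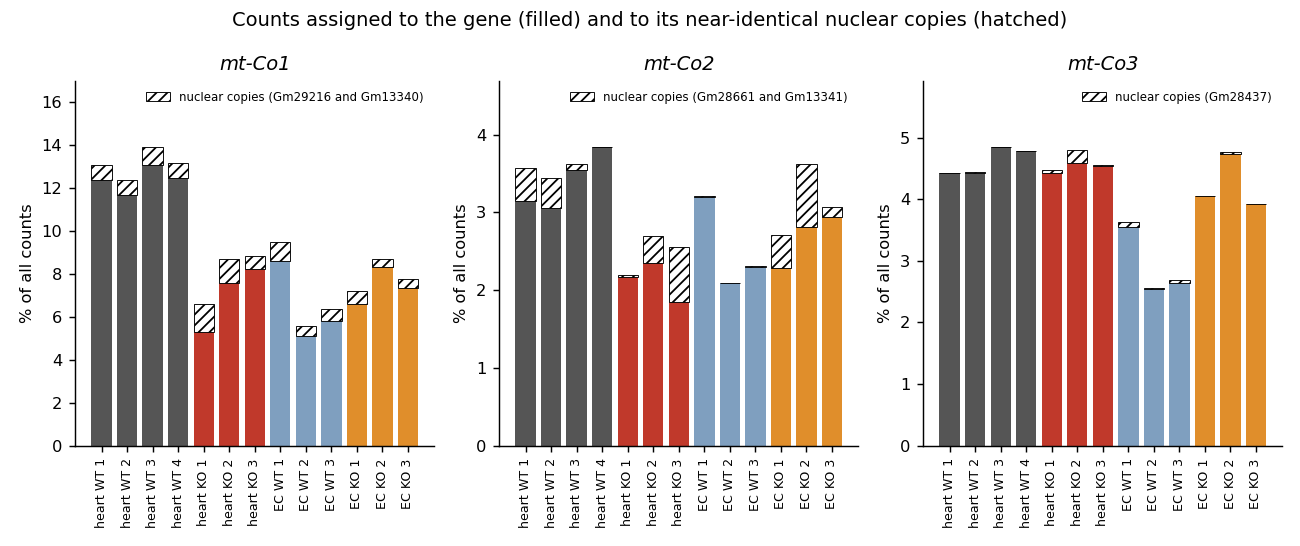
Percent of all estimated counts (y axis, from 0) assigned to mt-Co1, mt-Co2 and mt-Co3 (filled bars, coloured by group) and to their near-identical nuclear copies (hatched) in each library (x axis). The hatched part varies between libraries of a group, up to 27.4% of the bar for mt-Co2 in heart KO 3, and is at most 4.25% for mt-Co3.

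The nuclear genes of the same complexes moved in the opposite direction to the 6 genes in heart. Of 43 nuclear subunits of complexes III, IV and V, 36 passed as higher in KO hearts and 0 as lower, with a median log2 fold change of 0.63, where 17.2% of all genes passed as higher. By complex, 9 of 9 passed for complex III (median 0.65), 12 of 16 for complex IV (median 0.65) and 15 of 18 for complex V (median 0.61). In ECs 8 of 43 passed as lower and 0 as higher, with a median of -0.53, where 8.06% of all genes passed as lower. These were 2 of 9 for complex III (median -0.54), 6 of 16 for complex IV (median -0.63) and 0 of 18 for complex V (median -0.39), while 7, 13 and 10 had an unadjusted p under 0.05. The EC counts rested on single libraries: without EC WT 3 they were 7, 12 and 10, and without any other EC library 0, 1 to 2 and 0. In heart, complex III kept 5 of 9 without heart KO 2.

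In complex III, Uqcrh, the hinge protein, and Uqcrq, a small subunit, had the largest heart changes. Uqcrh was 318 to 361 CPM in WT and 486 to 821 in KO hearts, a rise of 0.91 (SE 0.15, adjusted p = 0.0017), and changed by -0.35 in ECs (adjusted p = 0.21). Uqcrq rose by 0.84 in heart (adjusted p = 0.0055) and fell by 0.76 in ECs (adjusted p = 0.041), a call lost without any of 5 of the 6 EC libraries. Beside them mt-Cytb, the only mitochondrially encoded subunit of this complex, fell in heart and did not pass in ECs.

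In complex IV the largest changes in heart were in Cox7a1 and Cox8b, subunit isoforms of heart and skeletal muscle that brown fat also expresses. Cox7a1 was 257 to 319 CPM in WT and 454 to 942 in KO hearts (log2 fold change 1.26, SE 0.19, adjusted p = 0.0012), and -0.55 in ECs (adjusted p = 0.14). Cox8b rose by 1.24 in heart (adjusted p = 0.0022) and fell by 0.77 in ECs (adjusted p = 0.042, lost without any of 5 of the 6 EC libraries), but 56.7% of its words occur in other listed genes. Cox4i1, the most abundant by mean TPM over all hearts although Cox7a1 had the higher mean in KO hearts, was 861 to 936 CPM in WT and 1270 to 2108 in KO hearts, a rise of 0.88 (adjusted p = 0.0017), with -0.61 in ECs (adjusted p = 0.077). Cox6a2, another heart and muscle isoform, chosen after its values were seen, was 3.80 to 16.3 CPM in WT and at most 0.319 in KO ECs, beside the lower level of cardiomyocyte markers in KO ECs, and 677 to 790 and 769 to 1038 in WT and KO hearts.

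In complex V, Atp5f1e, the epsilon subunit, and Atp5if1, the ATPase inhibitor, had the largest changes in heart. Atp5f1e was 155 to 171 CPM in WT and 265 to 631 in KO hearts, a rise of 1.36 (SE 0.22, adjusted p = 0.0017), and -0.18 in ECs (adjusted p = 0.46). Atp5if1 rose by 0.96 in heart (adjusted p = 0.0017), with -0.38 in ECs (adjusted p = 0.059). Atp5f1b, the catalytic beta subunit and the most abundant of the list, was 4101 to 4268 CPM in WT and 4857 to 5350 in KO hearts, a rise of 0.31 (adjusted p = 0.020), with -0.71 in ECs (adjusted p = 0.10). The heart call of Atp5f1b was lost without heart WT 1, 3 or 4 or heart KO 2.

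**Figure D4:**
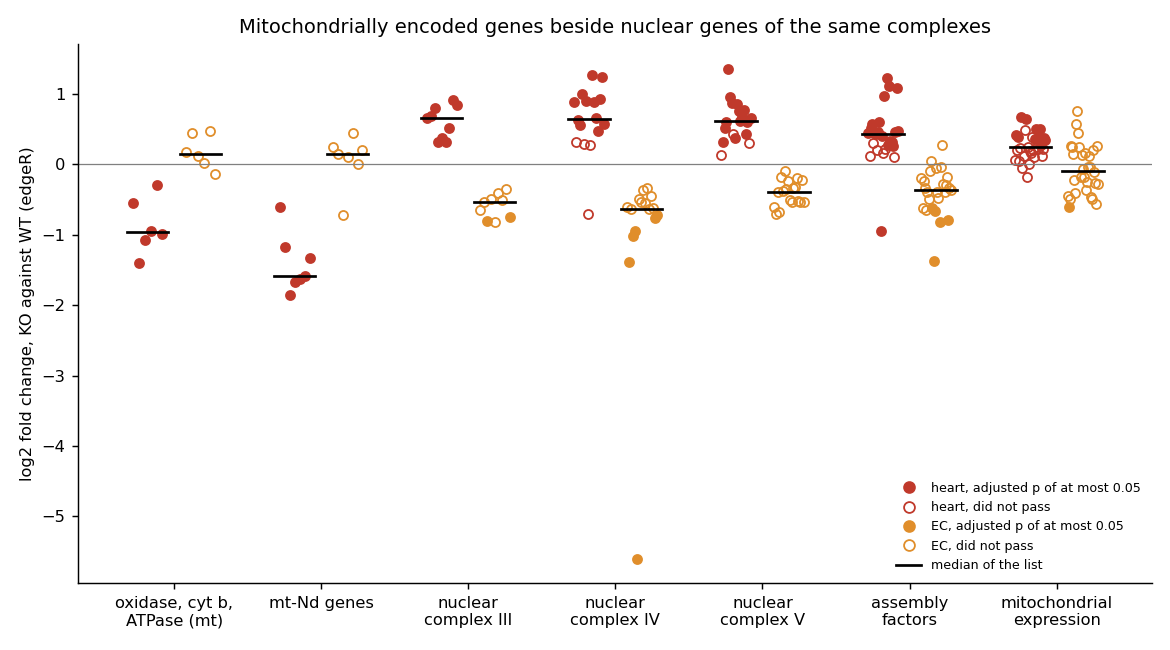
Log2 fold change of KO against WT (y axis) for the 6 genes, the 7 mt-Nd genes and lists of nuclear genes (x axis) in heart and in ECs; filled points passed at an adjusted p of at most 0.05, open points did not, and lines are list medians. In heart the 6 genes and, before copies are added, the 7 mt-Nd genes lie below 0 and the medians of the nuclear lists above it, while in ECs the medians of the nuclear lists lie below 0; the lowest EC point is Cox6a2.

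The ratio of mitochondrial to nuclear subunits, formed within each library from summed TPM, was lower in KO hearts and higher in KO ECs. The 6 genes over the 43 nuclear subunits gave 13.7, 11.6, 16.1 and 15.1 in WT hearts and 3.61, 5.16 and 6.27 in KO hearts. As log2 this was 3.81 ± 0.21 (SD, n = 4) against 2.29 ± 0.40 (SD, n = 3; exact permutation test, p = 0.0286). In ECs the ratio was 9.50, 5.72 and 8.40 in WT and 12.1, 15.0 and 14.6 in KO, as log2 2.94 ± 0.38 against 3.79 ± 0.17 (SD, n = 3 each; exact permutation test, p = 0.10, the smallest possible). The groups did not overlap in either tissue.

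Both parts of the ratio moved in heart. The nuclear subunits took 2.85% to 3.47% of TPM in WT and 5.16% to 7.41% in KO hearts, and the 6 genes 40.1% to 46.0% and 26.8% to 32.4%. In ECs the nuclear subunits took 3.56% to 4.77% in WT and 2.62% to 2.71% in KO, without overlap, while the 6 genes took 27.3% to 37.1% and 32.8% to 40.2%, which overlapped. By complex, the heart means went from 8.52 to 2.82 for complex III, from 21.1 to 7.78 for complex IV and from 10.9 to 3.53 for complex V. The EC means went from 4.67 to 6.30 with overlapping libraries for complex III, and without overlap from 7.92 to 14.6 for complex IV and from 9.77 to 17.4 for complex V. The complex V ratio rests mostly on mt-Atp8, whose TPM is uncertain: it held 44.5% to 68.3% of the TPM of mt-Atp6 and mt-Atp8 in heart and 58.7% to 66.3% in ECs. With mt-Atp6 alone the means were 3.91 and 1.78 in WT and KO hearts and 3.904 and 6.22 in WT and KO ECs, without overlap in either tissue. With mt-Atp8 left out of the ratio of all 3 complexes, the log2 difference was -1.40 in heart against -1.52, and 0.78 in ECs against 0.85.

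**Figure D5:**
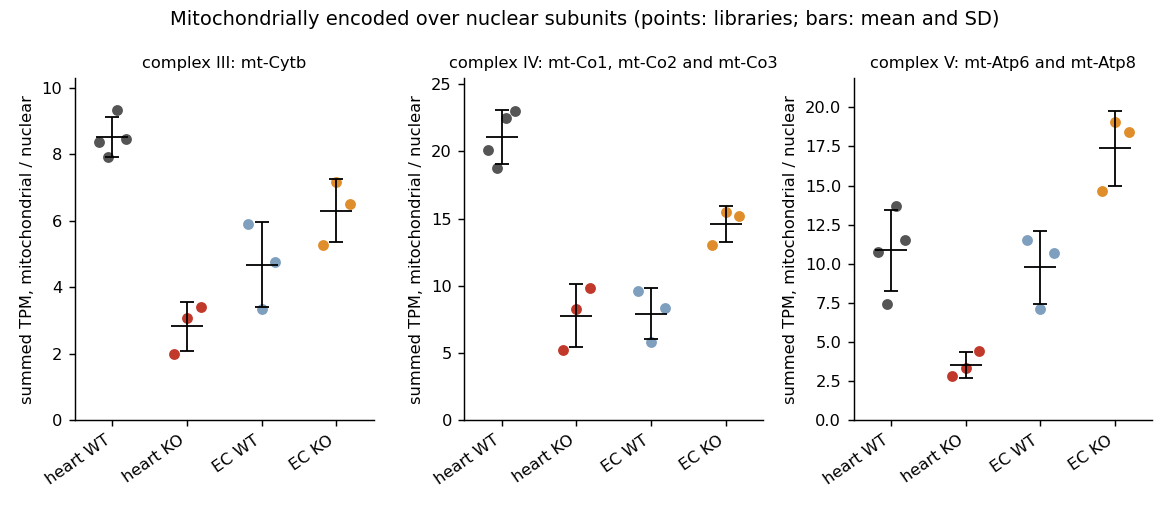
Summed TPM of the mitochondrially encoded genes over summed TPM of the nuclear subunits (y axis, from 0) for complexes III, IV and V in the 4 groups (x axis); points are libraries and bars the mean and SD. KO hearts lie below WT hearts in each panel, and KO ECs lie above WT ECs for complexes IV and V.

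Erythroid markers, which mark cells without respiring mitochondria once mature, were also higher in KO hearts: their summed level was 161 to 330 CPM of all counts in WT and 991 to 1622 in KO hearts, and 5 of the 5 tested passed as higher. Other lists also lay higher in KO hearts without overlap: smooth muscle markers at 1277 to 1636 in WT and 2060 to 2686 in KO, brown adipocyte at 255 to 287 and 464 to 844, endothelial at 425 to 559 and 681 to 727, fibroblast at 373 to 448 and 488 to 627 and macrophage at 46.4 to 60.2 and 65.0 to 89.6. White adipocyte markers overlapped. The brown adipocyte list holds Cox8b, named above among the complex IV subunits, which alone was 183 to 200 TMM-scaled CPM in WT and 287 to 671 in KO hearts. Of 4 brown adipocyte markers tested in heart, Cox8b passed as higher and 1 passed as lower. The cardiomyocyte sum was higher as well, while of its 12 markers 4 passed as higher and 3 as lower, with a median of -0.06. Of single fibroblast markers 0 of 6 passed as higher and 2 as lower, with a median of -0.15. For macrophage markers 1 of 6 passed as higher, for endothelial 3 of 8 and for smooth muscle 3 of 6, with 0, 0 and 1 lower. Of all genes 17.2% passed as higher and 16.2% as lower. The sums are not scaled by TMM, and with library totals alone the median log2 fold change of all genes was 0.26. The part of these cells in the mitochondrial values was not tested.

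Assembly factors of the 3 complexes followed the nuclear subunits in heart: 17 of 25 tested passed as higher and 1 as lower, with a median of 0.42, where 17.2% and 16.2% of all genes did. In ECs 0 passed as higher and 5 as lower, with a median of -0.37, where 8.06% of all genes passed as lower. The heart count of 18 was 11 without heart KO 2, and the EC count was 11 without EC WT 3 and 1 or 2 without any other EC library. Surf1, needed for complex IV assembly, rose by 0.33 in heart (adjusted p = 0.049) and Taco1, an activator of mt-Co1 translation, by 0.32 (adjusted p = 0.016). Bcs1l, which inserts the Rieske protein into complex III, rose by 0.51 (adjusted p = 0.010, 26.3% of its words shared with other genes), and Tmem70, a complex V assembly factor, by 0.26 (adjusted p = 0.049). Cox10 and Cox15, which make the heme A of mt-Co1, gave 0.30 (adjusted p = 0.063) and 0.19 (adjusted p = 0.15, 45.3% shared). None of these 6 passed in ECs, where their values ran from -0.65 for Cox10 to -0.10 for Cox15.

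Nuclear genes for mitochondrial transcription, DNA copying and RNA handling passed as higher for 11 of 30 in heart, with 0 lower and a median of 0.24, where 17.2% of all genes passed as higher. In ECs 1 of 30 passed, as lower, with a median of -0.09, where 8.06% of all genes did. The heart count was 23 with library totals alone, and 7 without heart WT 3, 6 without heart KO 1 and 7 without heart KO 2; the EC count was 8 without EC WT 3 and 0 without any other EC library. Tfam, which packages and transcribes mitochondrial DNA, rose by 0.27 in heart (adjusted p = 0.043), and Tefm, the elongation factor, by 0.50 (adjusted p = 0.016). Slirp, a partner of Lrpprc in holding mitochondrial mRNAs stable, rose by 0.50 (adjusted p = 0.018), with 94.3% of its words shared with other genes. Several did not pass in heart: Polrmt, the mitochondrial RNA polymerase, gave 0.20 (adjusted p = 0.11), Lrpprc -0.06 (adjusted p = 0.76) and Mtpap, the poly(A) polymerase, 0.01 (adjusted p = 0.97). The decay enzymes Pnpt1 and Supv3l1 gave 0.18 and 0.21 (adjusted p = 0.19 and 0.099). In ECs none of these 8 genes passed, with values from -0.46 for Supv3l1 to 0.20 for Tefm.

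The calls of the weaker of these genes were not stable. Surf1, Tmem70 and Tfam each lost their heart call when any of 6 of the 7 heart libraries was left out. Tefm lost it without heart WT 3 or heart KO 1, Slirp without heart KO 1 or 2, and Taco1 without heart KO 2, while Cox10 passed without heart WT 2. Without EC WT 3, Cox4i1, Atp5f1b, Cox10, Tmem70, Polrmt, Lrpprc and Supv3l1 passed as lower in ECs.

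The 6 genes varied together between libraries of a group. Over the 13 libraries, deviations of log2(CPM + 1) from the group means correlated between pairs of the 6 genes with Pearson's r of 0.60 (mt-Co1 and mt-Atp8) to 0.96 (mt-Co3 and mt-Atp6). The mean deviation was highest in EC WT 1 (0.52) and EC KO 2 (0.29) and lowest in EC WT 2 (-0.29). The mt-Nd genes also varied with the mean of the 6 genes: mt-Nd2 (r = 0.98), mt-Nd6 and mt-Nd1 (0.97 each), mt-Nd4 (0.95), mt-Nd5 (0.88), mt-Nd4l (0.70) and mt-Nd3 (0.34). These and the nuclear copies were left out of the 13332 other genes tested in both tissues. Among those, the most like the mean of the 6 genes were Angpt1 (r = 0.92), Gm3558 (0.91), Slc9a5 (0.91), Sucla2 (0.90) and Xxylt1 (0.90). Libraries are shared by all genes and the group means were taken out, so these are descriptions of 13 points without a test. Of these 5 genes, Angpt1, a ligand of the Tie2 receptor, fell by 0.73 in heart (adjusted p = 0.0027). Sucla2, a subunit of succinyl-CoA ligase, rose by 0.27 (adjusted p = 0.032), a call lost without any of 5 of the 7 heart libraries, and Slc9a5 and Xxylt1 did not pass. Gm3558 was listed at 1.32 to 1.68 CPM in WT hearts and at 0 in all KO hearts, so its deviations there were 0. In ECs it was at 0.769 to 1.85 in WT and 0 to 0.307 in KO. By edgeR it passed as lower in heart (adjusted p = 6.0e-05) and in ECs (adjusted p = 0.044). The EC call was lost whichever EC library was left out. Slc9a5 was also low, at 0.425 to 1.33 CPM over all libraries.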

How the data were processed

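Oligo-dT primed, directional libraries of 13 mouse samples were analysed. Per the labels and the study's methods, the authors estimated transcript abundance with Kallisto (0.44.0), against GENCODE mouse transcripts by its methods. The deposited tables give estimated counts and TPM per transcript, with effective lengths that were equal in all libraries for each of 118489 transcripts, so TPM were not adjusted to each library's fragment lengths. No mitochondrial rRNA or tRNA was listed.

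Transcripts were matched to GENCODE vM39 (115140 matched, 0.755% to 1.01% of counts unmatched) and summed per gene. Counts were rounded and tested with edgeR (4.0.16; R 4.3.3) using filterByExpr (minimum count 10), TMM and quasi-likelihood F-tests within a tissue, or with 4 group means over all libraries. DESeq2 (1.42.0), other scalings and filters, a replicate block, added copies and left-out libraries were alternatives. The edgeR and DESeq2 scripts were tested on simulated data. Shares and ratios were compared by exact permutation tests. Copies share at least 20% of their 31-base words. GENCODE supplied all sequences and coordinates. The labels do not say whether libraries of a group came from separate animals, so p-values measure the spread between these libraries. The rule for the members used gene names and no values, but members and lists were proposed with earlier results of these data known. Named genes were the 6 members, 15 fixed genes and the copies. Of each nuclear list, the 2 of largest passing change in heart and the most abundant in heart were named. The 5 genes of most similar pattern, outside the mitochondrial genes and their copies, were also named. Intervals of depth cover counting error only.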

Additional observations from a re-analysis of the deposited data

Results flagged for a closer look

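In heart WT, a group of 4, a sample lay far from the others by Dixon's test in 2 of 49 sets of values looked at, and chance alone marks about 1 in 20. mt-Co3 took 11.9% of mitochondrial counts in heart WT 2, above the other 3, and mt-Cytb took 4.60% of all counts in heart WT 3.

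The effect of the genotype differed between heart and ECs in the interaction test for mt-Atp8 (log2 difference, heart minus EC, of -1.80). It differed in the opposite direction for the nuclear subunits Uqcrh (1.30), Uqcrq (1.64), Cox7a1 (1.85), Cox8b (2.05), Cox4i1 (1.53), Atp5f1e (1.57), Atp5if1 (1.38) and Atp5f1b (1.05). It also did so for Cox10 (0.99), Surf1 (0.64), Taco1 (0.76), Bcs1l (0.79), Tmem70 (0.60), Polrmt (0.61), Tfam (0.42) and Supv3l1 (0.72). The nuclear subunits named here, other than Cox4i1 and Atp5f1b, were chosen for large heart changes, which are a term of this difference. Of all 43 nuclear subunits 41 passed with a positive difference, where 28.8% of all genes passed in either direction. For Gm3558, a gene of similar pattern to the 6 genes, the fitted difference was -5.69, a value that depends on the prior count, since all KO hearts held 0 counts.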

How the results depend on the processing

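The 6 heart calls and the 0 EC calls kept the same count, or one within 1.5 times, in every alternative: 4 to 6 in heart and 0 in ECs. The replicate block left 4 of 6 in heart (mt-Co3 adjusted p = 0.19, mt-Atp6 adjusted p = 0.051) and 2899 genes in all against 4618. Numbers did not pair the samples, since correlations of same-numbered libraries ran from -0.048 to 0.17. mt-Co3 also failed in heart with no filter (adjusted p = 0.12), with all libraries in a joint fit (0.44; mt-Atp6 0.15) and with copies added on library totals alone (0.97), an alternative chosen after seeing the data, as was leaving mt-Atp8 out of the ratio. A fit of all libraries called 4319 genes in ECs against 2766.

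For the interaction DESeq2 called 5 of the 6 genes, and copies added on library totals alone called 2. Heart WT against EC WT gave 3 of 6 with library totals alone. The heart difference in the share of all counts was -13.5 percentage points by TPM against -9.09, and in mitochondrial share 10.7 points without mt-Co1 against 6.63. In ECs the mitochondrial share differed by 1.52 points by TPM and -0.43 with copies added, against 0.23. The cause of these shifts was not tested.

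Leaving out 1 library gave 2888 to 5686 genes called in heart, 638 to 3596 in ECs, 3344 to 5201 for the interaction and 9863 to 10721 between WT tissues, and 1 to 6 members for the interaction. Signs of small, uncalled values turned, and over the left-out libraries these ran in ECs from -0.050 to 0.49 for mt-Co1, -0.13 to 0.33 for mt-Co2, -0.36 to 0.20 for mt-Cytb, -0.30 to 0.11 for Cox15, -0.23 to 0.036 for Pnpt1, -0.41 to 0.062 for Angpt1 and -0.43 to 0.13 for Sucla2. In heart they ran from -0.14 to 0.086 for Lrpprc and -0.033 to 0.047 for Mtpap. Other settings turned mt-Co2 in ECs (-0.027 with all libraries in a joint fit) and, in heart, Lrpprc (0.21), Xxylt1 (0.026 and 0.026, both with library totals alone, without and with copies added) and Mtpap (-0.040 by length-scaled TPM, -0.034 in the block). Shares against all mitochondrial RNA could not be formed, as rRNA and tRNA were not listed.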
